A study of Sus scrofa with 32 samples.

Results

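The genes described here are those of fatty acid handling, the peroxisome and the lipid droplet in the pig testis. They were taken as every pig symbol that starts with ACAD, ACOX, ACSL, ACSM, ACSS, CPT, ELOVL, FABP, FADS, HADH, PEX or PLIN, together with SCD, with at least 10 counts over all 32 libraries. The rule caught 57 symbols, and 54 of them reached the count minimum, out of 25322 gene identifiers of which 11804 carried a symbol. The 3 symbols left out were ELOVL3, with 5 counts in 4 libraries, and FABP6 and ACADVL, which are listed at 0 in all libraries. ACADVL is a broadly used gene of beta-oxidation, and its 0 is not read as absence of expression, since the sources used here do not name the annotation behind the counts. Just inside the minimum were PLIN1 with 23 counts in 10 libraries and PLIN4 with 29 counts in 11 libraries. Of 35 genes asked for because of their textbook roles, 29 had an identifier under their symbol. ELOVL6, FABP3, FABP4, FABP9, PLIN2 and PLIN3 had none and were not analysed here.

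Testis RNA was sequenced from 32 male crossbred pigs (Duroc with Landrace/Yorkshire), slaughtered at around 100 kg. The labels divide them into High AS and Low AS, where AS stands for androstenone and skatole, and into a control diet and a feed with 15% chicory over the last 3 days of life. Of the High AS pigs 10 received control feed and 7 chicory, and of the Low AS pigs 7 received each. The remaining pig, on chicory, had no AS group and entered no comparison. The 31 pigs of the comparisons are separate animals of 1 cross, and they came from 14 sows, so most of them share a mother with another pig. Sow was not a term in the main fits. Androstenone was 2.59 mg/kg ± 1.99 in High AS pigs (SD, n = 17, range 0.67 to 7.77) and 0.54 mg/kg ± 0.405 in the Low AS group (SD, n = 14, range 0 to 1.07), so the groups overlapped in concentration.

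Androstenone is the steroid behind boar taint and is made by Leydig cells, the steroid-producing cells between the seminiferous tubules. Fatty acids enter metabolism as acyl-CoA esters made by synthetases, pass into mitochondria by the carnitine shuttle and are broken down there by the cycle of beta-oxidation, while peroxisomes shorten very long and branched chains. Peroxins import enzymes and membrane proteins into peroxisomes, elongases and desaturases build long and unsaturated chains, and perilipins coat lipid droplets. In the testis, Leydig cells store cholesterol esters in droplets, Sertoli cells burn fatty acids, and spermatids are rich in polyunsaturated lipids.

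The libraries held 1855174 to 20349500 counts in genes, with a median of 4061083. By their names 8 libraries are numbered, with 10585625 to 20349500 counts, and the others are plain, with 1855174 to 5993637. High AS pigs gave 6 of the 8, so this division, called library set, was a term in every model. The libraries of lane 7 were all numbered ones of High AS pigs, and all others were in lane 6. Lane was not a term. INSL3, a peptide hormone of Leydig cells that stands here for Leydig content, ran from 67.6 to 937 CPM (read counts scaled to library size) in the numbered libraries and from 328 to 2601 CPM in the 23 plain libraries with an AS group. All 12 Leydig cell markers and all 12 Sertoli cell markers with an identifier, and markers of every germ cell stage listed had counts. Of the 6 adipocyte markers with an identifier, CIDEC had 24 counts and RETN 2 counts over all 32 libraries. By contrast, LIPE, PNPLA2, GPD1 and CFD had means of 262 CPM, 59.6 CPM, 19.4 CPM and 4.34 CPM over 31 pigs, and the list summed to 132 to 548 CPM per pig. LIPE and PNPLA2 are lipases that other cell types also use. The epididymal markers summed to at most 2.15 CPM in any pig. In whole testis, fewer cells of a type and less RNA per cell cannot be told apart.

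Pigs with more INSL3 had more of both subunits of the mitochondrial trifunctional protein, HADHA and HADHB, of the long-chain dehydrogenase ACADL, of the acetate enzyme ACSS2 and of the fatty acid carrier FABP5. By role these were 2 of 3 genes of the later steps of beta-oxidation, 1 of 7 acyl-CoA dehydrogenases, 1 of 9 synthetases and FABP5, while 0 of 4 genes of the carnitine shuttle passed. The model took the log2 CPM of INSL3 with diet and library set, so a slope is the log2 change of a gene per doubling of INSL3. Over all genes 333 of 13441 tested passed (2.48%), 311 of them rising (2.31%) and 22 falling (0.164%), in edgeR's quasi-likelihood test with Benjamini-Hochberg adjustment at 0.05. Of the 48 members tested, 6 passed (12.5%), and HADHB, HADHA, ACADL, ACSS2 and FABP5 were among them, all rising. Slopes were positive for 38 of the 48, with a median of 0.12, against 55.1% of all genes and a median of 0.02. INSL3 was measured in the same libraries, so these slopes are covariation and no treatment effect.

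Both subunits of the mitochondrial trifunctional protein rose along INSL3. The protein carries out the last steps of long-chain beta-oxidation. HADHB, its thiolase subunit, had 60.4 CPM in the lowest of the 31 pigs, a median of 107 CPM and 213 CPM in the highest. The lowest was the pig with the least INSL3 (Low AS control replicate 7, 67.6 CPM of INSL3) and the highest the pig with the most (Low AS control replicate 5, 2601 CPM of INSL3). These 2 pigs also differed in elongating spermatid markers, which summed to 38424 CPM in Low AS control replicate 7 and 13919 CPM in Low AS control replicate 5. HADHB rose by 0.29 per doubling of INSL3 (log2, SE 0.05, adjusted p = 0.00067 with edgeR). HADHA, the subunit with the hydratase and dehydrogenase activities, ran from 71.0 CPM in the same lowest pig through a median of 142 CPM to 240 CPM in the same highest pig. It rose by 0.21 (SE 0.05, adjusted p = 0.0122 with edgeR). In the RefSeq annotation of the Sscrofa11.1 assembly HADHB and HADHA are neighbours among protein-coding genes. HADH, the separate hydroxyacyl-CoA dehydrogenase for shorter chains, had a slope of 0.16 (SE 0.09, adjusted p = 0.301) and did not pass.

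**Figure D1:**
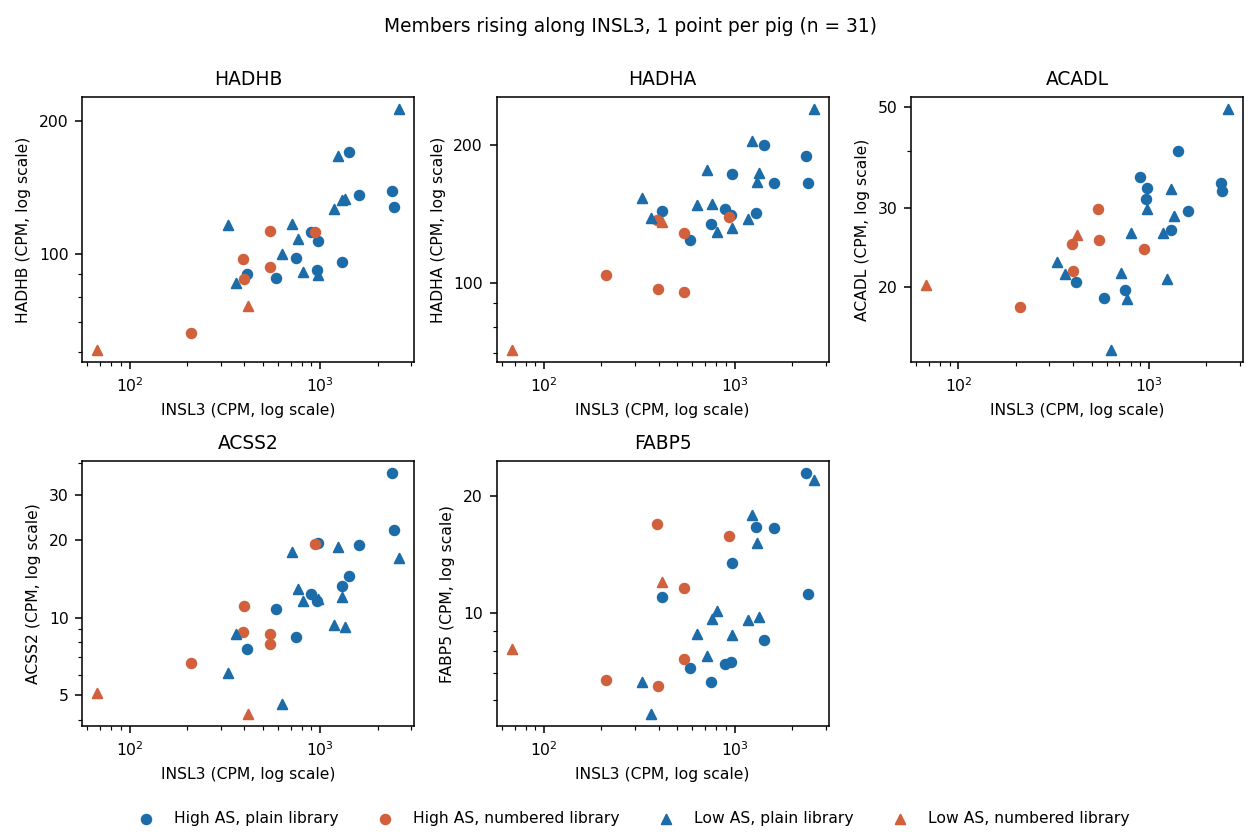
Level of 5 members that rose along INSL3, 1 point per pig (n = 31), INSL3 in CPM on the horizontal log axis and the member in CPM on the vertical log axis. Circles are High AS and triangles Low AS, with plain libraries in blue and numbered libraries in orange. HADHB reached 213 CPM in the pig with the most INSL3 and 60.4 CPM in the pig with the least.

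Acyl-CoA dehydrogenases such as ACADL, ACADM and ACADS open each cycle of beta-oxidation, each for its own chain length. Not all of the 7 members grouped here are of that kind, as ACADSB takes short branched chains. All 7 had positive slopes, with a median of 0.21 and a range of 0.06 to 0.26, and 1 of them passed. ACADL, the long-chain enzyme, ran from 14.5 CPM through a median of 26.1 CPM to 49.4 CPM, again highest in Low AS control replicate 5, and rose by 0.24 (SE 0.06, adjusted p = 0.0222 with edgeR). ACADM, the medium-chain enzyme, had a slope of 0.21 (SE 0.07, adjusted p = 0.0881), ACADS, the short-chain enzyme, 0.21 (SE 0.06, adjusted p = 0.0652), and ACAD11 0.26 (SE 0.08, adjusted p = 0.0908), none of which passed. In the carnitine shuttle none of 4 passed. CPT1A, the form of the entry enzyme best known from liver, had a slope of 0.19 (SE 0.08, adjusted p = 0.199), CPT1B, the muscle form, -0.13 (SE 0.10, adjusted p = 0.467), and CPT2, which acts on the inner membrane, 0.03 (SE 0.08, adjusted p = 0.835).

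Among the synthetases 1 of 9 tested passed. ACSS2 makes acetyl-CoA from acetate in the cytosol and nucleus, where it can feed sterol and fatty acid synthesis. Its level was 4.19 CPM in the lowest pig, 11.6 CPM at the median and 36.6 CPM in the highest, High AS control replicate 5, which held 2377 CPM of INSL3. The next highest, 21.9 CPM, was High AS chicory replicate 3, with 2427 CPM of INSL3. ACSS2 rose by 0.52 per doubling of INSL3 (SE 0.10, adjusted p = 0.00077 with edgeR), which was the largest slope among the members that passed. ACSS1, the mitochondrial acetate enzyme, had a slope of 0.05 (SE 0.06, adjusted p = 0.668). ACSL4, which prefers arachidonic acid, had 0.21 (SE 0.08, adjusted p = 0.162), ACSL3, tied to lipid droplet growth, 0.06 (SE 0.06, adjusted p = 0.605), ACSL1 0.01 (SE 0.07, adjusted p = 0.951) and ACSL6 -0.04 (SE 0.05, adjusted p = 0.664).

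FABP5, a carrier of fatty acids in the cytosol, had 5.49 CPM in the lowest pig, 9.67 CPM at the median and 22.9 CPM in the highest, which was again High AS control replicate 5. Low AS control replicate 5 came close with 22.0 CPM, whereas High AS chicory replicate 3, equally rich in INSL3, had 11.2 CPM. FABP5 rose by 0.38 (SE 0.09, adjusted p = 0.014 with edgeR). None of the 8 elongases and desaturases passed. SCD, which makes monounsaturated fatty acids, had a slope of 0.21 (SE 0.11, adjusted p = 0.315), FADS1 0.20 (SE 0.07, adjusted p = 0.156) and FADS2 0.18 (SE 0.14, adjusted p = 0.473), both of the latter being desaturases of polyunsaturated chains. ELOVL2 and ELOVL5, which lengthen those chains, had slopes of 0.12 (SE 0.08, adjusted p = 0.392) and 0.07 (SE 0.10, adjusted p = 0.683).

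In the peroxisome the slopes split by member. Of the 13 peroxins tested 10 had positive slopes. PEX3 had -0.13 (SE 0.07, adjusted p = 0.261) and PEX16 -0.09 (SE 0.07, adjusted p = 0.436), both of which act in the placing of peroxisomal membrane proteins. PEX19, the soluble chaperone of the same step, had 0.16 (SE 0.09, adjusted p = 0.293). The import receptors PEX5 and PEX7 had 0.10 (SE 0.08, adjusted p = 0.504) and 0.19 (SE 0.09, adjusted p = 0.243), and PEX11A, which acts in peroxisome division, 0.00 (SE 0.05, adjusted p = 0.969). ACOX2 and ACOX3, oxidases of peroxisomal beta-oxidation that take branched chains, had slopes of 0.45 (SE 0.15, adjusted p = 0.11) and 0.32 (SE 0.10, adjusted p = 0.0774), and neither passed.

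The 144 genes of 5 related pathway lists outside the symbol rule gave 84 tested along INSL3, of which 9 passed, all rising. Over all genes 2.48% passed, and 2.31% passed with a rising slope. Of 19 tested in beta-oxidation and carnitine 3 passed: ETFA at 0.31 (SE 0.08), ETFB at 0.29 (SE 0.07) and ETFDH at 0.27 (SE 0.07). These genes encode the electron transfer flavoprotein and its dehydrogenase, which take electrons from the acyl-CoA dehydrogenases, and they are named here after their values were seen. Of 19 in peroxisome matrix and membrane 4 passed, with DHRS4, a peroxisomal reductase, at 0.70 (SE 0.09), IDI1, an isomerase of sterol synthesis, at 0.67 (SE 0.14) and CAT, the catalase, at 0.39 (SE 0.08). The other one, SLC25A17, a peroxisomal carrier, had 0.33 (SE 0.08). LIPA, the lysosomal acid lipase that frees cholesterol from its esters, rose by 0.52 (SE 0.10) as the only one of 13 in lipid droplet turnover, and ME1, malic enzyme, by 0.52 (SE 0.11) as the only one of 18 in lipogenesis. In fatty acid uptake and its regulators 0 of 15 passed.

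Markers of cell types were read in the same fit. Of 11 Leydig cell markers other than INSL3, 7 passed, all rising, with a median slope of 0.53 over the 11. The 12 elongating spermatid markers had a median slope of -0.14 and the 11 Sertoli cell markers 0.14, with none passing in either list. The 6 endothelial markers had a median of 0.36 with none passing, and 1 of 3 macrophage and immune markers passed. With the mean log2 CPM of elongating spermatid markers as a further covariate, the same 6 members passed. The part of endothelial and immune cells in the slopes was not tested.

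**Figure D2:**
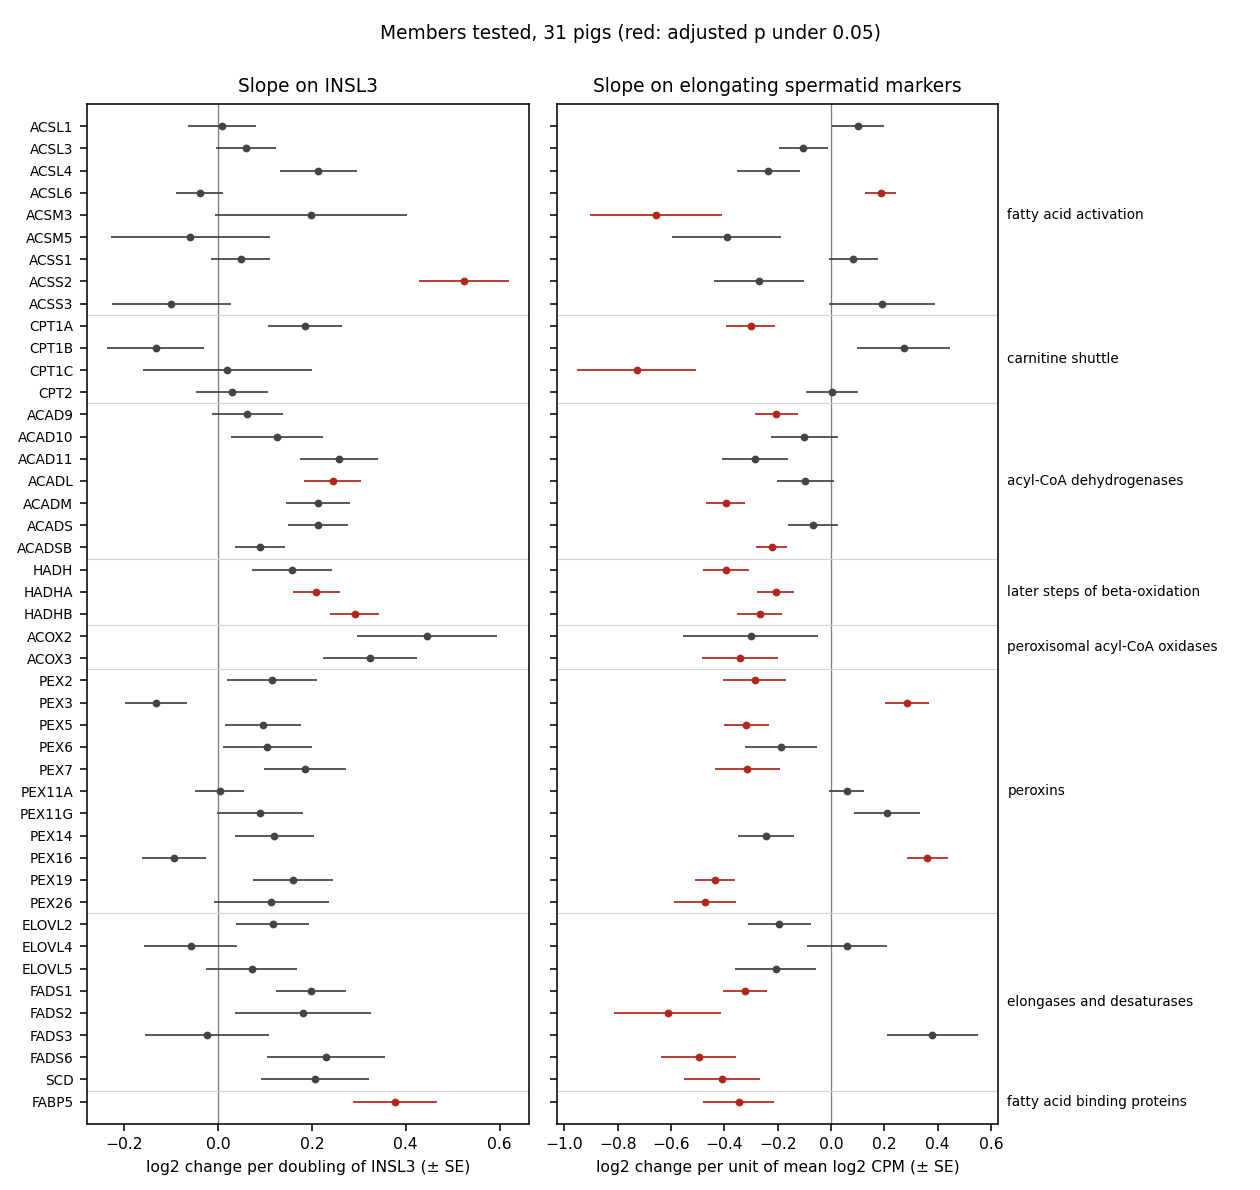
Slope of 45 members tested, ± SE, by role, on the log2 level of INSL3 (left, log2 change per doubling) and on the mean log2 CPM of elongating spermatid markers (right, log2 change per unit), from edgeR fits of 31 pigs. Red marks an adjusted p under 0.05. All 7 acyl-CoA dehydrogenases lie right of zero on the left and left of zero on the right.

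The relation with INSL3 was read again within each library set on log2 CPM. It covered the 3 members with the smallest p of each sign of slope, 12 relations in all with adjustment over the 12. The fit in these same pigs had chosen those members. The permutation p-values therefore describe a relation already selected and are no second test of it. In the 23 plain libraries HADHB gave Pearson's r = 0.68 and Spearman's rho = 0.73 (adjusted permutation p = 0.00104 and 0.00072), and r = 0.70 without the 2 pigs farthest from the median of INSL3. There ACSS2 gave r = 0.73 and rho = 0.71 (adjusted permutation p = 0.00104 and 0.0012) and 0.69 without those pigs. HADHA gave r = 0.60 and rho = 0.56 (adjusted permutation p = 0.00583 and 0.0184) and 0.56 without them. PEX3 and PEX16 gave r of -0.36 each and rho of -0.39 and -0.41, with adjusted permutation p of 0.111 for each r.

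In the 8 numbered libraries HADHB gave r = 0.88 and rho = 0.74 (adjusted exact permutation p = 0.00583 and 0.108), and r = 0.82 without the 2 farthest pigs. ACSS2 gave r = 0.64 and rho = 0.48 there (adjusted exact permutation p = 0.0901 and 0.324), which became 0.18 without the same pigs. HADHA gave r = 0.78 and rho = 0.43 (adjusted exact permutation p = 0.0901 and 0.359), which became 0.15. For ACSS2 and HADHA the relation in the numbered libraries therefore rests on those 2 pigs, Low AS control replicate 7 and High AS control replicate 8.

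How many members passed along INSL3 depended on the model. With sow as a fixed block 1 of 51 passed, ACSS2 (0.428% of genes), and without Low AS control replicate 5 there were 3 of 48, ACSS2, FABP5 and HADHB (1.39% of genes). With the mean of the other Leydig markers in place of INSL3, 19 of 47 passed (18.9% of genes), and with no term for library set 19 of 48 (22.7% of genes). Over the 31 fits that each left out 1 pig, ACSS2, FABP5 and HADHB passed in all 31, HADHA in 29 and ACADL in 28.

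Between High and Low AS pigs no member passed, as no gene of 13025 did (0%). Of the 47 members tested, 3 had an unadjusted p under 0.05, against 300 of all genes (2.3%), and DESeq2 and limma voom also called 0 members. Log2 folds of High over Low were positive for 20 of 47, with a median of -0.02 beside 0.01 over all genes, of which 51.6% were positive. ACSS2 had 6.68, 11.6 and 36.6 CPM as the lowest, median and highest of 17 High AS pigs, and 4.19, 10.5 and 18.9 CPM in 14 Low AS pigs. The groups overlapped over most of their range, and the log2 fold was 0.59 (SE 0.23, p = 0.014, adjusted p = 0.988 with edgeR). With INSL3 as a covariate that log2 fold was 0.27 (SE 0.19). INSL3 itself was 984 CPM ± 658 in High AS (SD, n = 17) and 910 CPM ± 628 in Low AS pigs (SD, n = 14). With library set in the model its own log2 fold was 0.42 (SE 0.30, adjusted p = 0.988 with edgeR).

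ACSL1, the most general of the long-chain synthetases, had 17.4, 24.6 and 34.3 CPM (lowest, median, highest) in High AS pigs and 13.9, 19.9 and 29.3 CPM in Low AS pigs. Its log2 fold was 0.26 (SE 0.12, p = 0.0409, adjusted p = 0.988 with edgeR) and its ranges overlapped. ACSS3, a mitochondrial enzyme that takes propionate, had 2.90, 4.64 and 10.2 CPM against 2.62, 6.46 and 11.7 CPM, a log2 fold of -0.46 (SE 0.22, p = 0.0449, adjusted p = 0.988 with edgeR), again with overlapping ranges. The next largest by p were SCD at 0.26 (SE 0.22), ACSL6 at 0.10 (SE 0.09) and FADS3 at 0.24 (SE 0.22) on the positive side. Without High AS control replicate 5 SCD had 0.12, without High AS chicory replicate 2 FADS3 had 0.15, and without Low AS chicory replicate 1 ACSL6 had 0.06. On the negative side were HADH at -0.27 (SE 0.16), PEX5 at -0.24 (SE 0.14), PEX19 at -0.25 (SE 0.15) and ACSM5, a medium-chain synthetase, at -0.43 (SE 0.31).

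Peroxins leaned to 1 side in this comparison without any passing. Of the 13 tested 12 had a negative log2 fold, with a median of -0.16 and values from -0.25 to 0.10, the exception being PEX3. PEX5 ran from 6.09 through 11.0 to 14.8 CPM (lowest, median, highest) in High AS pigs and from 8.63 through 12.6 to 27.3 CPM in Low AS pigs, and PEX19 from 79.3 through 116 to 193 CPM against 83.2 through 134 to 319 CPM. The highest value of both belonged to Low AS chicory replicate 1. Without that pig the log2 fold of PEX5 was -0.16 and that of PEX19 -0.14. In that pig the elongating spermatid markers summed to 3363 CPM, beside 13919 to 64685 CPM in the other pigs, and it was the highest of all libraries for 14 of the 54 members. In the same comparison all 12 elongating spermatid markers tested had a positive log2 fold (median 0.22) and all 5 spermatogonia markers a negative one (median -0.38), with none passing. The median slope of the 14 peroxins tested on the elongating spermatid level was -0.27. Of these 14, 9 had a negative slope, with 6 passing, and 5 a positive slope, with 3 passing. The part of germ cell content in the lean of the peroxins was not tested.

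Along the androstenone concentration no member passed either, where 3 of 13199 genes did (0.0227%), 2 rising (0.0152%) and 1 falling (0.00758%). With 0.5 mg/kg added to each concentration, a slope here is the log2 change per doubling of the sum. Of the 47 members 2 had an unadjusted p under 0.05, against 668 of all genes (5.06%), and DESeq2 and limma voom called 0 members. ACSL1 had a slope of 0.13 (SE 0.06, p = 0.0482, adjusted p = 0.852 with edgeR). ACSS2 had 0.21 (SE 0.12), ACSL6 0.06 (SE 0.04), CPT2 0.08 (SE 0.06) and FADS3 0.11 (SE 0.11). ACSS1 had -0.08 (SE 0.05), FADS2 -0.18 (SE 0.14), ACOX3 -0.14 (SE 0.11) and PEX19 -0.10 (SE 0.08). Without High AS control replicate 10, the pig with 7.77 mg/kg, CPT2 had 0.02 and ACOX3 -0.06, and ACOX3 had -0.21 without High AS chicory replicate 3. FADS3 had 0.05 without High AS chicory replicate 2, and ACSS1 -0.05 without Low AS chicory replicate 7. Of the 8 elongases and desaturases 7 had a negative slope, with a median of -0.06, beside a median of -0.01 over all genes.

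Chicory against control diet also gave no passing member, with 1 of 13025 genes passing (0.00768%) and 0 of 47 members at an unadjusted p under 0.05, against 114 of all genes (0.875%). DESeq2 and limma voom again called 0 members. ACADL had 18.1, 21.6 and 32.9 CPM (lowest, median, highest) in 14 chicory pigs and 14.5, 26.4 and 49.4 CPM in 17 control pigs, a log2 fold of -0.25 (SE 0.13, adjusted p = 1 with edgeR) with the chicory range inside the control range. FABP5 had 5.49, 8.71 and 17.9 CPM against 6.67, 10.1 and 22.9 CPM, a log2 fold of -0.34 (SE 0.20, adjusted p = 1 with edgeR). PEX3 had -0.18 (SE 0.11), PEX11G -0.22 (SE 0.16) and PEX6, an ATPase of the import machinery, -0.20 (SE 0.17). On the positive side stood ACSL3 at 0.10 (SE 0.11), PEX16 at 0.10 (SE 0.12), ACSM5 at 0.24 (SE 0.30), FADS3 at 0.16 (SE 0.21) and PEX5 at 0.10 (SE 0.14). Without Low AS chicory replicate 1 PEX5 had 0.01, ACSM5 0.14 and PEX16 0.15. Other single pigs also moved these values by over 1.5 times: FADS3 had -0.04 without High AS chicory replicate 2, ACSL3 0.05 without Low AS chicory replicate 6, PEX16 0.06 without High AS control replicate 5, PEX6 -0.13 without High AS chicory replicate 7 and ACSM5 0.37 without High AS control replicate 4.

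**Figure D3:**
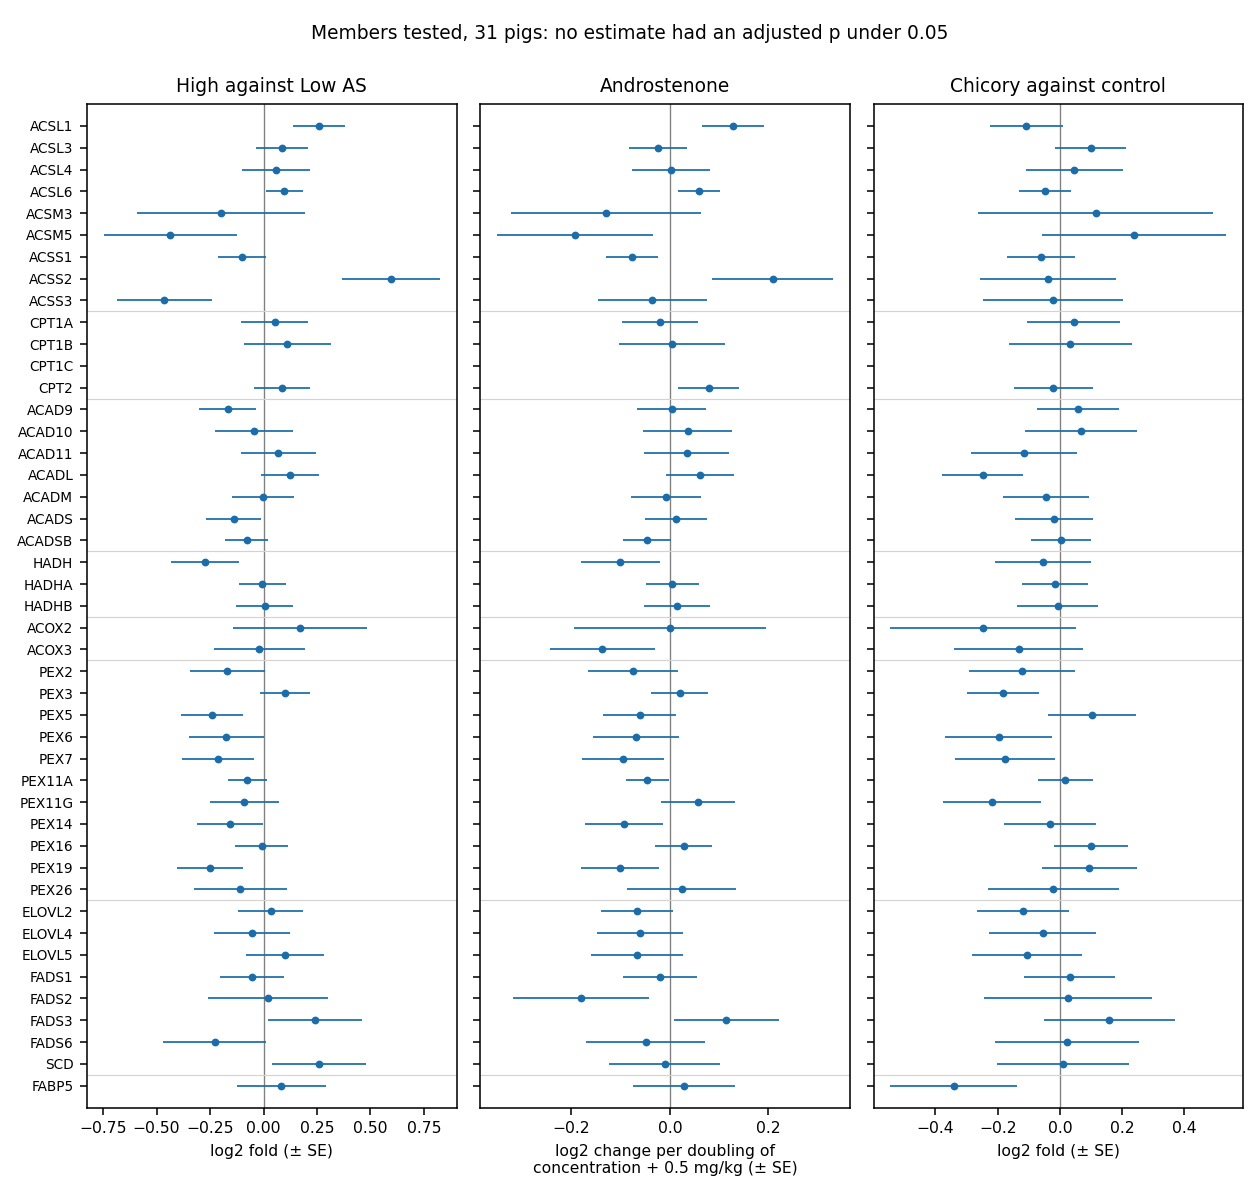
Estimates for 44 of the members tested, ± SE, by role: log2 fold of High over Low AS (left), log2 change per doubling of androstenone plus 0.5 mg/kg (middle) and log2 fold of chicory over control diet (right), from edgeR fits of 31 pigs. No member had an adjusted p under 0.05, and PEX5 and PEX19 lie left of zero in the AS panel, at -0.24 and -0.25.

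Whether the AS difference itself differed between diets was tested by an interaction, in which no member of 47 and no gene of 13025 passed (0%). At an unadjusted p under 0.05 there were 2 members, both desaturases, against 473 of all genes (3.63%), and DESeq2 called 0 members. Interaction estimates were negative for 33 of 47 members, with a median of -0.19 beside -0.02 over all genes. In the same fit all 12 elongating spermatid markers were positive (median 0.40), while the medians of the Sertoli cell, spermatogonia and endothelial markers were -0.51, -0.67 and -0.72, with none passing. The part of cell content in the interaction estimates was not tested. SCD had 58.4, 95.6 and 263 CPM (lowest, median, highest) in High AS pigs on control diet and 50.3, 66.2 and 108 CPM in Low AS pigs on control diet. On chicory it had 51.9, 70.1 and 106 CPM in High AS pigs and 65.1, 101 and 173 CPM in Low AS pigs. All 4 ranges overlapped. The High over Low log2 fold of SCD was 0.74 (SE 0.26) on control diet and -0.38 (SE 0.30) on chicory, a difference of -1.11 (SE 0.40, 95% interval -1.90 to -0.33, p = 0.00873, adjusted p = 0.951 with edgeR).

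FADS2 had 5.52, 20.8 and 77.0 CPM (lowest, median, highest) in High AS pigs on control diet and 6.50, 14.5 and 44.2 CPM in Low AS pigs on control diet. On chicory it had 6.32, 12.1 and 31.6 CPM in High AS pigs and 18.3, 41.0 and 62.3 CPM in Low AS pigs, again overlapping. Its log2 fold was 0.57 (SE 0.34) on control diet and -0.73 (SE 0.40) on chicory, a difference of -1.30 (SE 0.52, p = 0.0188, adjusted p = 0.951 with edgeR). High AS control replicate 5 was the highest pig for SCD, FADS2 and ACSS2. It had 0.67 mg/kg of androstenone, the lowest of the High AS pigs, and the interaction was not fitted without it. The other members with the smallest p were ACSM5 at -1.20 (SE 0.60), HADH at -0.54 (SE 0.31) and ACSM3 at -1.28 (SE 0.80) on the negative side, and ACSL1 at 0.30 (SE 0.25), CPT1B at 0.50 (SE 0.41), PEX11G at 0.37 (SE 0.32), ACOX3 at 0.28 (SE 0.44) and ACSS3 at 0.25 (SE 0.47) on the positive side. Without High AS chicory replicate 3 PEX11G had 0.17 and ACSS3 -0.02. On control diet alone no member passed, and the 2 of 47 with an unadjusted p under 0.05 were SCD and ACSS2 at 0.84 (SE 0.30), against 165 of all genes (1.27%). Within chicory alone no member passed either, and 4 of 47 had an unadjusted p under 0.05, against 809 of all genes (6.21%). They were HADH at -0.58 (SE 0.23), ACSM5 at -1.14 (SE 0.46), PEX19 at -0.52 (SE 0.23) and ACSL1 at 0.43 (SE 0.19), High over Low AS. Low AS chicory replicate 1 was the highest pig for HADH, ACSM5 and PEX19. The fits within a diet were not repeated without that pig.

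**Figure D4:**
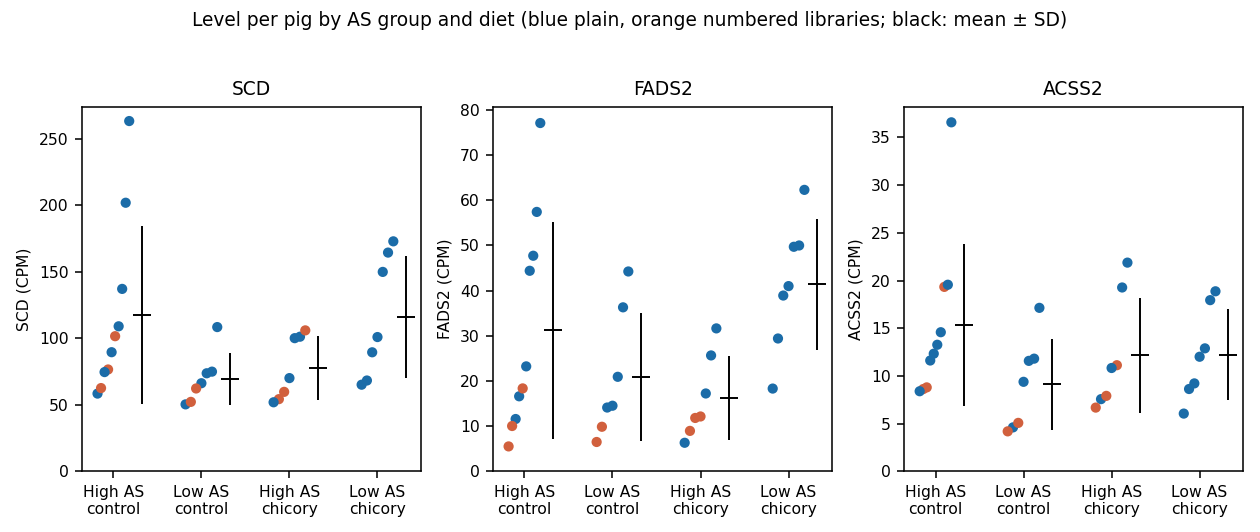
Level of SCD, FADS2 and ACSS2 in CPM for each pig by AS group and diet, with plain libraries in blue and numbered libraries in orange, and the mean ± SD of each group in black (n = 10, 7, 7 and 7). The highest point of each panel is High AS control replicate 5, at 263, 77.0 and 36.6 CPM.

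Germ cell content was then used as a second axis, in a fit chosen after seeing the data, with the mean log2 CPM of 12 elongating spermatid markers in place of INSL3. Here 6370 of 13759 genes passed (46.3%), 3069 rising (22.3%) and 3301 falling (24%). Of 49 members tested 25 passed (51%), with 4 rising and 21 falling, and the median slope was -0.23 beside -0.04 over all genes. All 3 of the later beta-oxidation genes fell: HADH by 0.39 (SE 0.09), HADHB by 0.27 (SE 0.08) and HADHA by 0.21 (SE 0.07) per unit. ACADM fell by 0.40 (SE 0.07), ACADSB, for short branched chains, by 0.22 (SE 0.06), and CPT1A by 0.30 (SE 0.09). PEX19 fell by 0.44 (SE 0.08), FADS2 by 0.61 (SE 0.20), SCD by 0.41 (SE 0.14) and CPT1C, the brain form of the shuttle enzyme, by 0.73 (SE 0.22). FABP5, which rose along INSL3, fell here by 0.35 (adjusted p = 0.0317 with edgeR).

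The rising members included PEX16 at 0.36 (SE 0.08), PEX3 at 0.29 (SE 0.08) and ACSL6, a synthetase tied to docosahexaenoic acid, at 0.19 (SE 0.06). High AS control replicate 3 had the highest sums of peritubular and epididymal markers (304 and 2.15 CPM) and Low AS chicory replicate 1 the lowest of elongating spermatid markers. Without both, a pair chosen with these data known, 18 of 47 members passed (30.7% of genes), of which 11 were among the 25. PEX3, PEX16 and ACSL6 were not among those 11. As only 4 of the 25 rose, falling members were among those lost as well. With INSL3 as a covariate 20 of 49 passed (42.5% of genes), all of them among the 25. Across the 48 members tested in both fits, the INSL3 slope and the spermatid slope correlated at r = -0.62, as a description over genes measured in the same libraries, which are not independent.

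A few members were too low for the tests. PLIN1, PLIN4, PLIN5, FABP7 and ACSM4 did not pass the filter on low counts in any of these fits, CPT1C passed only in those on INSL3 and spermatid markers, and PEX5L only in the latter. PLIN1, the perilipin of adipocytes, and PLIN4 had medians of 0 CPM and highest values of 0.806 and 0.359 CPM over 31 pigs, so no difference was detectable at this depth. PLIN5, the perilipin of oxidative tissues, had counts in all 32 libraries, 193 in total, with a median of 0.988 CPM and a highest value of 3.62 CPM. ACSM4, a medium-chain synthetase, held 98 of its 123 counts in 1 pig, High AS control replicate 3, at 10.03 CPM, where the next highest pig had 0.595 CPM.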

How the data were processed

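RNA of the testis of 32 pigs was sequenced from TruSeq stranded mRNA libraries, per the labels' protocols. The authors deposited 1 table of whole-number read counts per pig and Ensembl gene identifier, without normalization. The submitters' processing notes list HTSeq 0.6.0, SAMtools 1.3.1, STAR, cutadapt 1.8.1 and Trimmomatic 0.33, with no roles given. Build, annotation release and strand setting are not given in the sources used here. Reads of overlapping or antisense genes could therefore not be told apart, and no coordinates are printed. The 5 last rows of each table, which name no gene, entered neither library sizes nor tests, and the one for reads outside annotated genes took 20.6% to 39.6%.

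Counts were tested with edgeR 4.0.16 in R 4.3.3: filterByExpr, scaling by the trimmed mean of M values (TMM), the quasi-likelihood F test over all genes and Benjamini-Hochberg adjustment at 0.05, in 31 pigs. The model held AS group, diet and library set, or the interaction of AS group and diet, or replaced AS group by the log2 of androstenone plus 0.5 mg/kg, by the log2 CPM of INSL3 or, as a fit added after seeing the data, by the mean log2 CPM of elongating spermatid markers. Standard errors (SE) are the log2 value divided by the square root of F. CPM is read counts scaled to the TMM-adjusted library size. Alternatives were DESeq2 1.42.0, limma 3.58.1 (voom), other scaling and filters, other terms, sow as a fixed block, and leaving out pigs. Scripts were tested on simulated counts.

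The members, lists and tests were chosen with earlier results of these data known. In the fits on AS group, androstenone, diet, the AS by diet interaction and INSL3, all members that passed were named. Where none passed, the 5 with the smallest p in each direction were named. Genes with textbook roles and up to 4 genes of the pathway lists per fit were named as well. For the fit on spermatid markers only some of the members that passed are named. Results for 3 of the members are not reported here, though counts and medians over the members include them. Replicate numbers follow accession order and pair no pigs. Of 108 pairs of libraries of the same group, the closest differed by 7.24 chi-square units per degree of freedom, so none was counted as a duplicate. Depth bounds low genes most in plain libraries.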

Additional observations from a re-analysis of the deposited data

Results flagged for a closer look

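Among the 40 sets of values made by 10 genes in the 4 groups of pigs, 4 held a pig far above the rest by Dixon's criterion at 95%, and chance alone flags about 1 in 20. INSL3 reached 2377 CPM in High AS control replicate 5, where the nearest pig of that group had 1420 CPM and the group median was 949 CPM. ACSS2 reached 36.6 CPM in the same pig, where the nearest had 19.6 CPM and the median was 12.8 CPM. FABP5 reached 22.0 CPM in Low AS control replicate 5, where the nearest had 12.0 CPM and the median was 9.63 CPM. SCD reached 108 CPM in Low AS control replicate 1, where the nearest had 74.9 CPM and the median was 66.2 CPM.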

How the results depend on the processing

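For AS group, androstenone and diet, 0 members passed in the main fit and under each alternative run, including every fit that left out 1 pig; the interaction gave 0 without library set, with DESeq2 and without High AS chicory replicate 3. Along INSL3 the 6 members became 19 with no library set term, 10 in plain libraries alone, 1 with sow as a fixed block, 19 with the other Leydig markers in place of INSL3 and 10 with AS group as a term, and ranged from 3 to 9 when 1 pig was left out (3 without Low AS control replicate 5, 9 without High AS control replicate 8). They were 6 with index set, median-of-ratios scaling, no filter, limma voom, the spermatid covariate or 29 pigs, 7 with DESeq2, 4 with carcass weight and 9 with androstenone as a covariate. Index set contains library set, as numbered and plain libraries shared no index. The share of all genes that passed also moved with the setting, as given above for sow, the other Leydig markers and library set. The counts of members therefore do not describe the members alone. The cause of the changes in count was not tested. None of the 6 changed sign. With sow as a block SCD in the AS comparison became -0.015, ACSS1 and ACOX3 along androstenone 0.065 and 0.087, and PEX16 and FADS3 in the diet comparison -0.076 and -0.019. FADS3 became -0.017 along androstenone in plain libraries alone, and ranged from -0.040 to 0.24 in the diet comparison when 1 pig was left out, with -0.040 without High AS chicory replicate 2. ACSS3 in the interaction became -0.021 without High AS chicory replicate 3. None of these had passed. Replicate numbers only follow accession order and pair no pigs, so litters were compared through the sow block alone. Depth in plain libraries limits the lowest members.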

Other observations

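The pig on chicory without an AS group, which entered no comparison, had 572 CPM of INSL3. Its HADHB was 110 CPM, HADHA 161 CPM, ACADL 32.5 CPM, ACSS2 8.69 CPM and FABP5 11.5 CPM, all within the range of the 31 other pigs.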
